A study of Mus musculus with 33 samples.

Results

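The genes described here are the cytosolic ribosomal protein genes of the mouse, followed through livers in which MYC, stabilised β-catenin or both had been switched on and through liver tumours driven by MYC. They were taken by symbol: every row whose name is Rpl or Rps followed by a number, with or without a final a, l or x, together with Rplp0, Rplp1, Rplp2 and Rpsa. This gave 81 of the 21671 genes in the table. Of these, 43 encode proteins of the large (60S) subunit, 30 of the small (40S) subunit and 3 of the P-stalk, and 5 are paralogues with a restricted or variant role (Rpl3l, Rpl10l, Rpl39l, Rps27l and Rps4l). The name rule leaves out pseudogene rows, Rps3a (listed as Rps3a1) and ribosomal proteins with other names such as Fau.

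Total RNA of 33 livers and liver nodules of C57BL/6 mice was sequenced. In the short-term arm, mice aged 6 to 8 weeks received AAV8-TBG-CRE by vein, an adeno-associated virus whose TBG promoter limits Cre to hepatocytes, and were killed on day 4. The wild-type mice (WT, 5 livers) received the same virus, as did mice with beta-cat Ex3 (5 livers, called Ex3), an allele in which Cre removes exon 3 of β-catenin and so stabilises the protein. MYC mice carried R26-lslMYC (5 livers), a MYC transgene in the Rosa26 locus behind a loxP-flanked stop, and MYC+Ex3 mice carried both alleles (5 livers). The tumour arm holds nodules of Albeta-CreERT2/R26-lslMYC mice (3 MYC tumours) and of Albeta-CreERT2/R26-lslMYC/beta-catEx3 mice (3 MYC+Ex3 tumours), with no treatment or age given. Their reference is 7 livers of wild-type mice taken on day 4 after 4-OHT, the tamoxifen metabolite that activates CreERT2; no Cre allele is named for them. Nodule and normal liver, genotype and time therefore cannot be told apart in that arm. Libraries are called by their group and a number that pairs no animals.

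A ribosome is built from ribosomal RNA and one copy of most of the ribosomal proteins, so the genes for these proteins are usually expressed together and at high levels. MYC is known to drive ribosome production: it acts on RNA polymerase I, on the factors that process ribosomal RNA in the nucleolus and on ribosomal protein genes. Ribosomal protein mRNAs also begin with a run of pyrimidines at the 5′ end (the TOP motif), through which mTOR signalling controls their translation. Hepatocytes, which secrete most plasma proteins, carry many ribosomes.

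The promoters show how alike and how unlike these genes are at their start. RefSeq promoter windows (GRCm38.p6, 250 bases before to 50 after the start, the first listed start of a gene) matched 60 of the 81 genes. CCGGAAG, a match to the core of ETS family sites, was present on either strand in 24 of these 60 windows, or 40%, against 9.1% of the windows of all 27025 genes. TCGCGA, a palindrome, was present in 12 windows, or 20%, against 2.6%. The E-box CACGTG, the MYC/MAX consensus, was present in 8.3% against 7.2%, and TATAAA in 8.3% against 14.2%. The pyrimidine runs CTTTCC or CTTTTC lay on the coding strand between 10 bases before and 20 after the start in 12 windows, or 20%, against 2.2%. These matches describe letters and are no evidence of binding. The 3 windows below (70 bases before to 20 after the start, read 5′ to 3′ on the coding strand) are shown because Rps12 had the largest rise in both kinds of tumour, while Rpl11 and Rps6 hold CCGGAAG and TCGCGA; capitals mark matches to the motifs. Rps12 lies on chr10:23787190-23787279 (minus strand) and has a CTTTTC run after its start. Rpl11 lies on chr4:136053374-136053463 (minus strand), with CTTTCC upstream and CCGGAAG just after the start, and Rps6 lies on chr4:86857348-86857437 (minus strand), with TCGCGA upstream.
Rps12: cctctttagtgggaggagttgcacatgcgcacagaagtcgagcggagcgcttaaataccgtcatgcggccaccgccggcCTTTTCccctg
Rpl11: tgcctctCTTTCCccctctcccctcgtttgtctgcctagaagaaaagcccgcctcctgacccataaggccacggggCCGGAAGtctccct
Rps6: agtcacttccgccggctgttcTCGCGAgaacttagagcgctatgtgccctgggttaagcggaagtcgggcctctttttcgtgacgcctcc

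Levels are given as deposited RPKM, in which a gene's reads are divided by its length in kb and by a library total in M. The totals behind them were 3.75 to 7.32 M in the short-term arm and 23.89 to 38.84 M in the tumour arm, so levels are compared within an arm only. Whole reads could be recovered from the RPKM values. Reads in genes made up 99.95% to 99.96% of the total in short-term libraries, or 3.75 to 7.31 M. In the tumour arm they made up 22.19% to 29.61%, or 6.65 to 9.82 M. This share was 22.19% to 26.55% in the 4-OHT livers and 24.62% to 29.61% in the tumours. Its part in the RPKM differences was not tested. No gene of at least 300 bases exceeded 1474 to 1648 reads per kb in any short-term library, or 1612 to 1810 in the tumour arm. Ribosomal protein genes are close to that level: the highest of them reached 839 to 1466 reads per kb in the short-term arm and 1190 to 1624 in the tumour arm. Within groups the RPKM of these genes fell as the library total rose: the median slope of log2(RPKM + 1) on log2 total was -0.55 in the short-term arm, against 0.18 for all genes tested, and -0.88 against -0.15 in the tumour arm. RPKM is therefore given beside reads per kb, which is not divided by the total. Of the short-term livers 10 held epidermal keratin reads (Krt5, Krt14 and Krt17 summing to 3.95 to 23.8 RPKM) and 10 did not (at most 0.398); 3 of 5 WT, Ex3 and MYC+Ex3 livers but 1 of 5 MYC livers were keratin-bearing. Hepatocyte markers were present in every library, the RPKM of 10 such genes summing to 1390 to 2610 in the short-term arm and 241 to 448 in the tumour arm.

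The level of the set differed widely between genes. Rplp1, an acidic protein of the P-stalk that recruits elongation factors, was the highest in both arms, with a mean RPKM of 237 over the short-term livers and 43.9 over the tumour arm. The median gene had a mean of 112 and 23.3. At the low end, Rpl34 had a mean RPKM of 11.3 and Rps15a of 14 in the short-term arm. The lengths used by the authors bear on this order, since Rps15a was counted over 5134 bases, Rps24 over 4384 and Rpl11 over 2794, against 468 for Rplp1. Rpl26 had 0 to 14 reads in any short-term library, a level far from that of the other core proteins. Ribosomal protein genes have near-identical processed copies in the genome, and how reads shared with copies were counted is not given in the sources used here, so their absolute levels are uncertain. The testis paralogue Rpl10l and the muscle paralogue Rpl3l had means of 0.0872 and 0.209 RPKM and were not tested. The testis paralogue Rpl39l (mean 1.15) was tested in the short-term arm only. In all, 79 of the 81 genes passed the filter (RPKM of at least 1 in 3 libraries) in the short-term arm and 77 in the tumour arm, where Rpl26 and Rpl39l also failed.

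With MYC alone, part of the set was higher in the day 4 livers, by modest amounts. The RPKM of the 81 genes summed to 8743, 7314, 7716, 8823 and 7718 in the WT livers and to 9822, 9236, 10752, 12151 and 7561 in the MYC livers. MYC livers 1 to 4 stood above all 5 WT livers, while MYC liver 5, whose total of 6.69 M was the highest of its group, lay inside their range. The group means were 8063 ± 678 and 9904 ± 1711 (SD, n = 5 each). In reads per kb the groups did not overlap: the median over the 81 genes was 393 to 577 in WT livers and 586 to 698 in MYC livers. As a share of all RPKM they did overlap, the set taking 2.28% to 2.6% in WT livers and 2.32% to 3.31% in MYC livers.

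**Figure D1:**
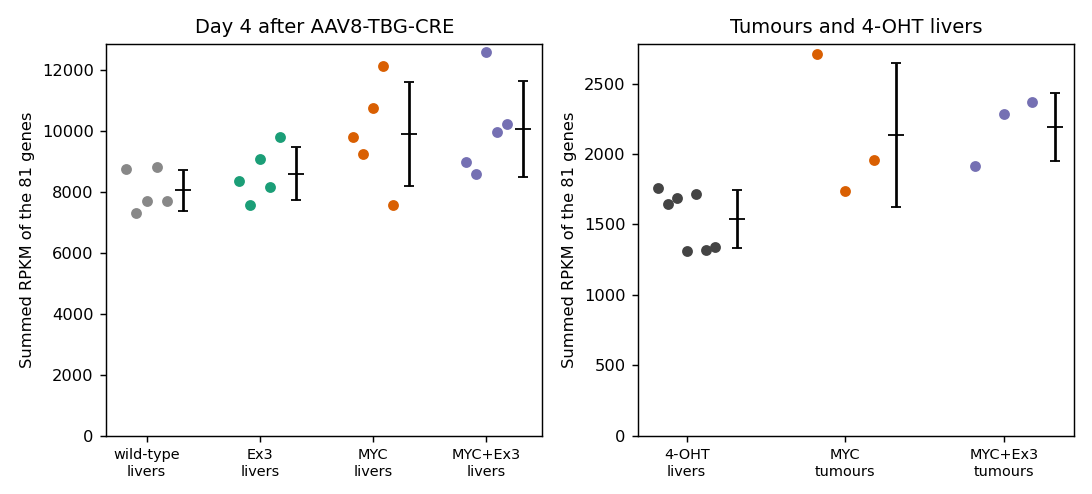
Summed RPKM of the 81 ribosomal protein genes (y axis) in each library (points) by group, with the group mean and SD beside the points; the left panel holds the day 4 livers, the right panel the tumour arm, on different RPKM scales. MYC and MYC+Ex3 livers lie mostly above the wild-type range of 7314 to 8823, and the 6 tumours span 1734 to 2711 with the 7 4-OHT livers at 1308 to 1759.

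**Figure D2:**
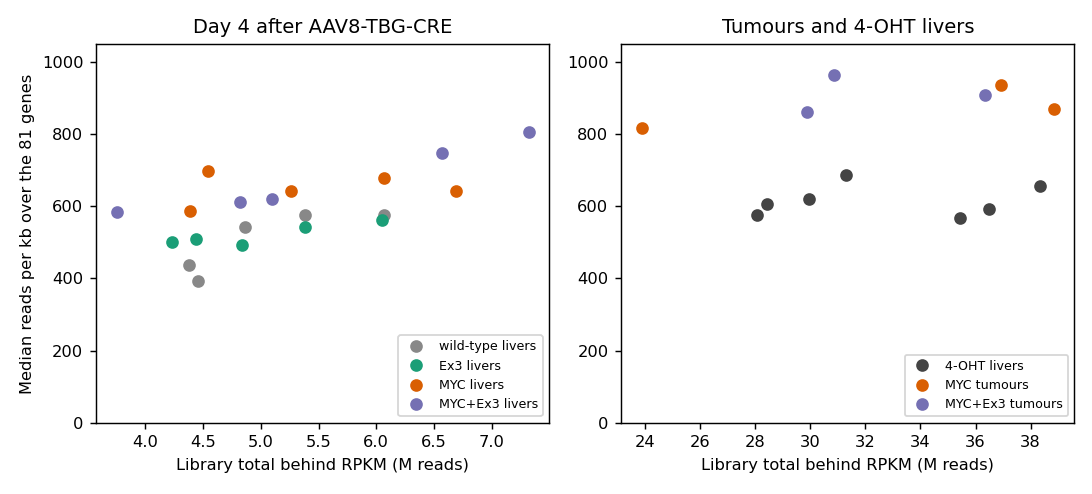
Median reads per kb over the 81 genes (y axis) against the library total behind the RPKM values in M reads (x axis), 1 point per library, coloured by group. The livers with MYC (584 to 806) lie above those without it (393 to 577), and the tumours (818 to 965) above the 4-OHT livers (568 to 687). The totals overlap only in part. Livers without MYC span 4.23 to 6.07 M and those with it 3.75 to 7.32 M. The 4-OHT livers span 28.09 to 38.34 M and the tumours 23.89 to 38.84 M.

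By gene, 25 of 79 rose in MYC livers and none fell (limma on log2(RPKM + 1), adjusted p under 0.05). This is 31.6% higher, against 16.9% of all 13688 genes tested; 5.36% of all genes fell. All 79 differences were above 0, from 0.09 to 1.09, with a median of 0.30 on the log2 scale against 0.07 for all genes. The libraries of the groups did not overlap for 3 of the 79 genes, all higher (Rps16, Rpl34 and Rpl26), against 10.9% of all genes higher and 2.4% lower. By this measure the share of members was below that of all genes. The large subunit had 13 of 43 genes higher (median 0.30), the small subunit 10 of 30 (0.28), the P-stalk 1 of 3 (0.24) and the paralogues 1 of the 3 tested (0.30), so the called genes were spread over both subunits. The authors' deposited table called 6 of 77 of these genes higher and none lower, with a median log2 change of 0.21, against 12.5% and 8.02% of all its genes. Its share of higher members was thus below that of all genes.

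Among small subunit genes, Rps16, whose protein's tail contacts the tRNA in the P site, had the largest rise. Its RPKM was 33.8, 18.6, 12.6, 33.4 and 26.4 in WT livers and 64.0, 44.2, 47.0, 58.3 and 45.2 in MYC livers. Every MYC liver was above every WT liver, and the difference was 1.09 ± 0.204 (SE, limma adjusted p = 0.000585). These values rest on 47 to 112 reads in WT livers and 127 to 207 in MYC livers. The gene had a mean of 216 reads per kb in the short-term arm and 820 in the tumour arm, where Rplp1 had 1219 and 1407. Why its coverage was so low in the short-term arm was not tested. Rps12, a protein of the 40S beak, had 41.4, 37.5, 40.6, 45.1 and 38.6 RPKM in WT livers and 73.8, 61.2, 77.7, 101 and 44.9 in MYC livers. MYC liver 5 was again the exception, just inside the WT range, and the difference was 0.76 ± 0.148 (limma adjusted p = 0.000922). Rps24, which like Rps19 is mutated in Diamond-Blackfan anaemia, had 22.3, 19.8, 20.8, 20.8 and 20.9 RPKM in WT livers, a narrow range, and 37.4, 30.1, 33.9, 43.5 and 22.2 in MYC livers (0.62 ± 0.127, limma adjusted p = 0.00143). Rps19 itself rose by 0.47 ± 0.112 (limma adjusted p = 0.00482). Rps6, the classic substrate of the S6 kinases, was 0.23 higher, which did not pass the test (limma adjusted p = 0.153), nor did Rpsa, the laminin receptor homologue at the mRNA exit (0.24, limma adjusted p = 0.167). The ubiquitin fusion gene Rps27a differed by 0.24 (limma adjusted p = 0.267).

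Among large subunit genes, Rpl34 rose by 0.80 ± 0.203 (limma adjusted p = 0.00744), from 6.87, 9.81, 6.93, 8.64 and 7.29 RPKM to 15, 12.5, 11.5, 22.9 and 12.3. These values rest on 19 to 26 reads in WT livers and 30 to 62 in MYC livers, and the groups did not overlap. Rpl26, which also regulates p53 translation, rose by 0.85 ± 0.269 (limma adjusted p = 0.0279) on 1 to 3 reads in WT livers and 4 to 14 in MYC livers; its call was lost under 7 of 18 alternatives. Rpl3, which reaches towards the peptidyl transferase centre, rose by 0.52 ± 0.108 (limma adjusted p = 0.00151), from a mean of 85.2 ± 8.98 to 124 ± 20.5 RPKM (SD, n = 5 each). Of 3 proteins chosen among those that bind MDM2 when ribosome assembly is disturbed, Rpl11 rose by 0.38 (limma adjusted p = 0.0244) and Rpl23 by 0.36 (limma adjusted p = 0.0322), while Rpl5 was 0.22 higher without passing the test (limma adjusted p = 0.242). Rpl13a, also part of a translational silencing complex, rose by 0.46 ± 0.142 (limma adjusted p = 0.0234). Rpl22 differed by 0.16 (limma adjusted p = 0.346).

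In the P-stalk, Rplp2 rose by 0.51 ± 0.142 (limma adjusted p = 0.0136), while Rplp0, its anchor on the 60S, and Rplp1 were 0.24 and 0.21 higher and did not pass (limma adjusted p = 0.137 and 0.26). Among the paralogues, Rps4l, a relative of the X-linked Rps4x, had 24.1, 18.6, 15.2, 15.3 and 14.8 RPKM in WT livers and 39.8, 32.4, 24.2, 37.7 and 21.9 in MYC livers. The groups overlapped through WT liver 1, and the rise of 0.78 ± 0.245 (limma adjusted p = 0.0272) lost its call under 7 of 19 alternatives. Rps27l, a paralogue of Rps27 and a known p53 target, had the smallest difference of the set, 0.09 ± 0.191 (limma adjusted p = 0.793), with 88.5 to 138 RPKM in WT and 92.4 to 173 in MYC livers. By assembly order, 4 of 9 genes whose proteins join late in the cytoplasm rose (median 0.37) as did 1 of 9 genes of early 60S assembly (median 0.26).

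The count of 25 depended on single libraries and on scaling. It was 14, 15 and 11 without MYC liver 1, 3 or 4, 51 without MYC liver 5 and 16 without WT liver 2, and 8 after rescaling each library by its median ratio. After rescaling, 10.1% of the tested members rose against 13.7% of all genes, so their share was no longer above the background. A term for keratin-bearing libraries gave 52 and the keratin-free libraries alone 2 (median 0.19, 2 WT and 4 MYC livers), or 65.8% against 17.8% and 2.56% against 7.09% of all genes; with the library total as a covariate, added after the data were seen, it was 68. For the fits without a library the share of all genes is not given here. No gene of the set fell under any of these settings. In the same comparison 3 of 10 hepatocyte markers fell (median -0.20, summed RPKM 1940 to 2340 in WT and 1600 to 2140 in MYC livers) and 2 of 7 endothelial markers fell (median -0.51, summed RPKM 163 to 275 and 112 to 215); their part in the result was not tested. Rescaling also moved the split of all called genes from 2313 higher and 734 lower to 1882 and 1302.

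With both alleles the picture in day 4 livers resembled that with MYC alone. The RPKM of the set summed to 8974, 8596, 12598, 9981 and 10223 in the MYC+Ex3 livers (mean 10074 ± 1565, SD, n = 5). MYC+Ex3 liver 3, with the lowest total of all libraries (3.75 M), was the highest, and liver 2, with the highest total of the arm (7.32 M), was the lowest. Against WT livers 33 of 79 genes rose and none fell (limma), 41.8% higher against 17.9% of all genes; 6.18% of all genes fell. The median difference was 0.32 against 0.05. The groups did not overlap for 26 genes, all higher, against 13.5% of all genes higher and 3.7% lower. The authors' deposited table called 14 of 77 higher and none lower, against 16.3% and 11.5% of all its genes. That share of higher genes was near the background.

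Rps16 was again first, at 48.2, 67.8, 52.9, 53.9 and 50.3 RPKM in MYC+Ex3 livers, all above the WT maximum of 33.8 (1.18 ± 0.204, limma adjusted p = 0.000238). Rps12 had 69.6, 66.0, 87.4, 68.1 and 71.4 RPKM, all above the WT maximum of 45.1 (0.82 ± 0.148, limma adjusted p = 0.000387). Rps15a, a 40S platform protein, had 18.4, 20.9, 20.8, 15.4 and 17.9 RPKM against 12.3, 8.57, 10.5, 10.9 and 9.74 in WT livers, again without overlap (0.79 ± 0.135, limma adjusted p = 0.000215). Rps4l rose by 0.92 ± 0.245 and Rpl34 by 0.90 ± 0.203 (limma adjusted p = 0.00918 and 0.00268). Rps27l had a difference of 0.06 (limma adjusted p = 0.863). The large subunit had 19 of 43 genes higher, the small subunit 12 of 30, the P-stalk 1 of 3 (Rplp2, 0.58 ± 0.142, limma adjusted p = 0.00527).

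Against Ex3 livers, which carry the same β-catenin allele, 15 of 79 genes rose and none fell (limma), 19.0% against 16.4% of all genes, a share close to the background; 4.7% of all genes fell. The median was 0.23 against 0.03. The groups did not overlap for 17 genes, all higher, against 15.2% of all genes higher and 5.02% lower. The 5 largest rises were those of Rpl34 (1.12), Rpl26 (0.83), Rps12 (0.82), Rps16 (0.76) and Rps15a (0.74). Rpl26 rests on at most 7 reads a library and lost its call under 8 of 19 alternatives. Rps12 was at 38.7, 37.1, 43.6, 38.0 and 45.1 RPKM in Ex3 livers, below all MYC+Ex3 livers.

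These 2 counts also moved with single libraries. The count against WT was 21 without MYC+Ex3 liver 3 or without WT liver 2. It was 10 after rescaling, or 12.7% against 15% of all genes. Keratin-free libraries gave 5 (median 0.10, 2 livers a group), or 6.41% against 14.1%, and keratin-bearing ones 53 (median 0.45, 3 livers a group), or 67.1% against 15%. The count against Ex3 was 8 without MYC+Ex3 liver 3 or without Ex3 liver 2. It was 7 after rescaling (8.86% against 14.2%), 3 in keratin-free libraries (3.85% against 12.4%) and 10 in keratin-bearing ones (12.7% against 10.7%). The share of members was thus below that of all genes after rescaling and in keratin-free libraries in both comparisons. In the keratin-free pairs the totals also differed, the MYC+Ex3 livers being at 6.57 and 7.32 M and the WT livers at 5.38 and 6.07 M.

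With stabilised β-catenin alone, no change in the set was detected at day 4. The Ex3 livers summed to 8348, 7578, 9087, 8157 and 9812 RPKM. Ex3 livers 3 and 5 were above the WT maximum of 8823 and the other 3 inside the WT range, and the median reads per kb were 492 to 563, inside the WT range of 393 to 577. No gene passed the test in either direction (limma, 0 of 79, and 0 at an unadjusted p under 0.05), where 0.132% of all genes rose, and the smallest adjusted p was 0.928. The differences ran from -0.22 for Rpl34 to 0.46 for Rps4l, with a median of 0.08. The authors' deposited table called none of 77, against 0.656% of all its genes higher and 0.109% lower. Standard errors such as 0.127 for Rps24 and 0.204 for Rps16 leave shifts of that size undetectable.

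Adding Ex3 to MYC likewise gave no called gene: 0 of 79 between MYC+Ex3 and MYC livers (limma, and 0 at an unadjusted p under 0.05), where 0.19% of all genes rose. The median was 0.03 and the range -0.52 for Rpl39l to 0.21 for Rps15a. The interaction, which asks whether the effect of both alleles departs from the sum of each, called 0 of 79 genes (0 at an unadjusted p under 0.05) and 0.0% of all genes, with a median of -0.06. Its standard errors were large for single genes, for example 0.06 ± 0.21 for Rps12 and -0.34 ± 0.288 for Rps16 (limma adjusted p = 1.0 for both). The authors' deposited table called none of 77 between MYC+Ex3 and MYC livers, against 0.247% of all its genes higher and 0.0299% lower.

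**Figure D3:**
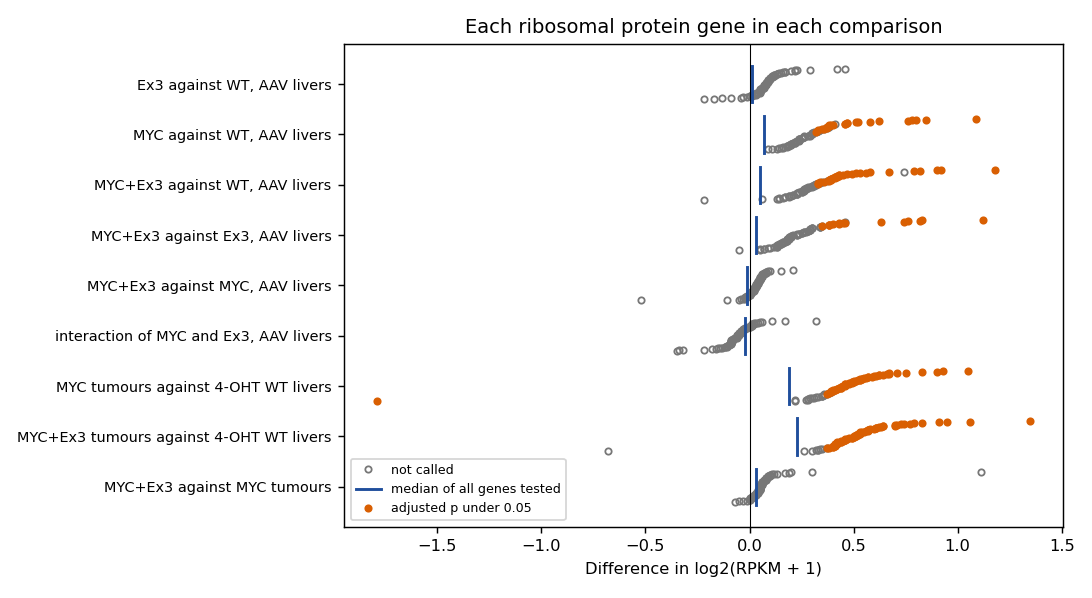
Difference in log2(RPKM + 1) (x axis) of each ribosomal protein gene tested (points, 79 or 77) in each of the 9 comparisons (rows); filled points passed limma at an adjusted p under 0.05 and the blue bar is the median of all genes tested. Called points appear in the 5 comparisons that set MYC against no MYC, where the gene set has medians of 0.23 to 0.50 and all genes of 0.03 to 0.23; Rps4l lies far to the left in MYC tumours (-1.79).

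In the tumour arm most genes of the set were higher in tumours than in 4-OHT livers. The RPKM of the set summed to 1308 to 1759 (median 1648) in the 7 4-OHT livers, to 2711, 1734 and 1961 in the MYC tumours and to 1917, 2287 and 2368 in the MYC+Ex3 tumours. MYC tumour 2, which has the highest total of the arm (38.84 M), overlapped the livers, and the other 5 tumours were above them all. As a share of all RPKM the set took 1.87% to 2.14% in the livers, 2.22% to 2.86% in the MYC tumours and 2.36% to 2.63% in the MYC+Ex3 tumours, with no overlap. Median reads per kb were 568 to 687, 818 to 937 and 862 to 965. In these bulk samples a change in the mix of cells and a change in RNA per cell cannot be told apart.

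In MYC tumours 55 of 77 genes rose and 1 fell (limma), so that 71.4% rose against 36.2% of all 11854 genes tested. Of all genes 13.7% fell and 49.8% changed either way. The median difference was 0.45 against 0.19 for all genes. Tumours and livers did not overlap for 33 genes that were higher, against 26.3% of all genes, and for 1 that was lower, against 8.89%. In MYC+Ex3 tumours 68 of 77 rose and none fell, 88.3% against 42.3% of all genes higher, 18.4% lower and 60.6% either way. The median was 0.50 against 0.23, and 63 genes did not overlap, all higher, against 38.2% of all genes higher and 17.8% lower. Both comparisons use the same 7 livers. The authors' deposited table called 21 of 78 higher and 1 lower in MYC tumours, against 24.4% and 20.2% of all its genes, a share of higher genes near the background. It called 56 of 78 higher and none lower in MYC+Ex3 tumours, against 30.7% and 29.9%.

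Rps12 and Rps24 of the small subunit had the largest rises. Rps12 had 6.05 to 8.60 RPKM (median 7.34) in the livers, 17.2, 13.6 and 17.9 in MYC tumours and 18.7, 20.0 and 21.4 in MYC+Ex3 tumours. All 6 tumours were above all livers, and the differences were 1.05 ± 0.126 and 1.35 ± 0.126 (limma adjusted p = 2.24e-05 and 1.12e-06). Rps24 had 3.83 to 5.21 RPKM (median 4.50) in the livers, 10.1, 7.88 and 10.5 in MYC tumours and 9.73, 10.1 and 11.3 in MYC+Ex3 tumours (0.93 ± 0.113 and 1.06 ± 0.113, limma adjusted p = 2.45e-05 and 3.48e-06). Rps15a had 2.08 to 2.73 RPKM in the livers and 4.46 to 5.34 in the tumours, a difference of 0.83 and 0.91 ± 0.0908 (limma adjusted p = 1.14e-05 and 1.9e-06). Rps3, a 40S protein also tied to DNA repair, rose by 0.75 and 0.95 ± 0.124 (limma adjusted p = 0.000266 and 1.85e-05). Rps19, Rps6, Rpsa and Rps27a rose too, by 0.56, 0.46, 0.44 and 0.49 in MYC tumours (limma adjusted p = 0.00261, 0.0239, 0.0226 and 0.0189). In all, 23 of 30 small subunit genes rose in MYC tumours and 29 of 30 in MYC+Ex3 tumours.

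Of the large subunit 31 of 42 genes rose in MYC tumours and 37 of 42 in MYC+Ex3 tumours. Rpl22, an RNA-binding protein of the 60S surface and a known tumour suppressor in lymphoid cells, had 9.86 to 15.4 RPKM (median 12.0) in the livers, 31.4, 19.1 and 21.4 in MYC tumours and 19.6, 21.1 and 26.5 in MYC+Ex3 tumours. No tumour overlapped the livers, and the rises were 0.90 and 0.83 ± 0.164 (limma adjusted p = 0.000513 and 0.000574). Its paralogue Rpl22l1, outside the name rule, rose by 0.90 and 0.99 ± 0.16 (limma adjusted p = 0.000451 and 0.000112). In the day 4 livers the pair differed: Rpl22l1 rose by 0.83 ± 0.252 with MYC (limma adjusted p = 0.0222), while Rpl22 had the value of 0.16 given above. Whether these differences themselves differ was not tested.

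Rpl3 rose by 0.59 and 0.70 ± 0.142 (limma adjusted p = 0.00352 and 0.000661) and Rpl13a by 0.64 and 0.74 ± 0.142 (limma adjusted p = 0.00205 and 0.000469). Of the same 3 MDM2-binding proteins, Rpl11 and Rpl23 rose in MYC tumours by 0.54 and 0.66 (limma adjusted p = 0.0013 and 0.00383), and Rpl5 was 0.36 higher with a limma adjusted p of 0.0556. All 3 rose in MYC+Ex3 tumours, by 0.73, 0.61 and 0.40 (limma adjusted p = 6.99e-05, 0.00442 and 0.0292). In the P-stalk of MYC tumours Rplp2 rose by 0.49 (limma adjusted p = 0.0139), and Rplp0 and Rplp1 differed by 0.35 and 0.28 (limma adjusted p = 0.0649 and 0.138). In MYC+Ex3 tumours Rplp0 passed (0.41, limma adjusted p = 0.0288) and Rplp1 did not (0.32, limma adjusted p = 0.0834).

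Neither tested paralogue rose in the tumours. Rps27l was 0.22 and 0.26 higher and did not pass (limma adjusted p = 0.288 and 0.186). Rps4l had 6.20 to 11.2 RPKM (median 7.77) in the livers, 0.311, 5.99 and 0.950 in MYC tumours and 0.877, 23.3 and 2.96 in MYC+Ex3 tumours. It was below every liver in 5 of 6 tumours and above every liver in MYC+Ex3 tumour 2, on 7 to 219 reads in MYC tumours and 30 to 656 in MYC+Ex3 tumours. In MYC tumours it fell by 1.79 ± 0.605 (limma adjusted p = 0.0237), and in MYC+Ex3 tumours the value was -0.68 ± 0.605 (limma adjusted p = 0.345). The fall lost its call under 5 of 19 alternatives, among them leaving out MYC tumour 1 (-1.30, limma adjusted p = 0.117) or MYC tumour 3 (-1.58, limma adjusted p = 0.0948). Its difference was thus above 0 in day 4 MYC livers and below 0 in MYC tumours.

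**Figure D4:**
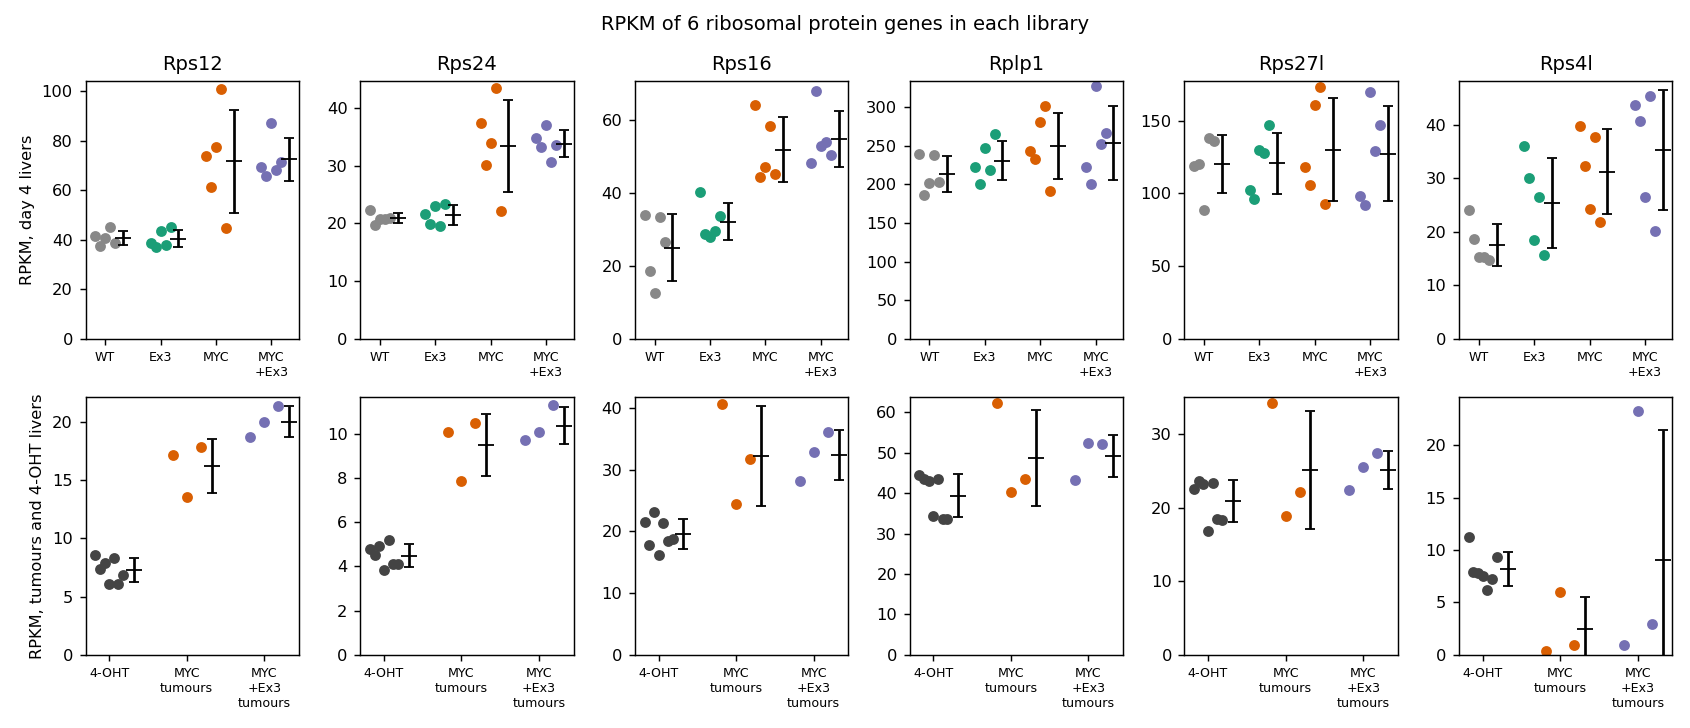
RPKM (y axis, from 0) of Rps12, Rps24, Rps16, Rplp1, Rps27l and Rps4l (columns) in each library (points) by group, with mean and SD beside the points; the upper row holds the day 4 livers and the lower row the tumour arm. Rps12 and Rps24 separate tumours from livers, Rplp1 and Rps27l overlap between groups, and Rps4l spreads from 0.311 to 23.3 among the 6 tumours, where SD bars are not drawn below 0.

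Between the MYC+Ex3 and MYC tumours no gene of the set passed the test (limma, 0 of 77, and 0 at an unadjusted p under 0.05), where 2.02% of all genes rose, 2.1% fell and 4.13% changed either way. The median difference was 0.05. Rps12 was 0.30 ± 0.149 higher (limma adjusted p = 0.325) and was the only gene without overlap, against 8.59% of all genes higher and 7.71% lower; Rps4l had the largest value, 1.11 ± 0.716 (limma adjusted p = 0.459). The authors' deposited table called none of 77, against 1.56% of all its genes higher and 2.92% lower.

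The tumour counts moved with scaling and with single tumours. After rescaling by the median ratio, which lowered the median of all genes from 0.19 to 0.01 in MYC tumours and from 0.23 to 0.05 in MYC+Ex3 tumours, 22 and 33 genes rose, with medians of 0.24 and 0.29; these are 28.6% and 42.9% of the tested members, against 27.1% and 33.9% of all genes, so in MYC tumours the share was then close to the background. The split of all called genes moved from 4286 higher and 1621 lower to 3212 and 2764 in MYC tumours, and from 5011 and 2178 to 4018 and 3211 in MYC+Ex3 tumours. Without MYC tumour 1, the library with the lowest total of the arm, 21 genes were called in MYC tumours; without MYC+Ex3 tumour 2 or 3, 39 (1 of them lower) and 32 were called in MYC+Ex3 tumours. Sex was inferred from the RPKM of Ddx3y against Xist. With it as a covariate 31 genes of the set rose in MYC tumours, all of which were called male. For the fits without a library or with sex the share of all genes is not given here. A loss of power over all genes and a change in the set cannot be told apart in them. Other cell types moved with the tumours: 6 of 8 macrophage and 5 of 7 endothelial markers fell in MYC tumours, and 6 of 6 erythroid markers rose in MYC+Ex3 tumours. Hepatocyte markers fell for 1 of 10 genes in MYC tumours and 5 of 10 in MYC+Ex3 tumours (summed RPKM 328 to 448 in the livers, 241 to 431 and 247 to 342 in the tumours). Macrophage markers summed to 121 to 163 RPKM in the livers and 39.6 to 132 in the tumours, endothelial markers to 42.9 to 71.7 and 24.0 to 39.6, and erythroid markers to 13.5 to 30.9 in the livers, 10.6 to 73.4 in MYC tumours and 69.7 to 91.2 in MYC+Ex3 tumours. Their part in the result was not tested.

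The change tended to be smaller in densely covered genes. Over the 79 genes the difference between MYC and WT livers had a Pearson correlation of -0.59 and a Spearman correlation of -0.50 with mean reads per kb, and the values over 77 genes were -0.33 and -0.48 for MYC+Ex3 tumours. For MYC tumours they were -0.12 and -0.51, so Pearson's measure was near 0 there. The genes share libraries and depth, so these are descriptions. In MYC livers 12 of 23 genes below 500 reads per kb rose (median 0.37), 11 of 37 between 500 and 800 (0.29) and 2 of 19 above 800 (0.22). For other genes in the same ranges of coverage the medians were 0.08, -0.12 and -0.18, with 17.4%, 6.11% and 1.95% rising. These ranges are broad, the lowest holding 12946 other genes, and coverage was not matched within them. In MYC+Ex3 tumours 12 of 13, 30 of 31 and 26 of 33 ribosomal protein genes rose at these levels of coverage, against 44.0%, 27.6% and 10.9% of other genes. Leaving out members above 50% of the highest RPKM in any library left 38 in the short-term arm. Of these 17 rose with MYC (44.7%), against 16.9% of all genes tested. In the tumour arm 26 were left, of which 21 rose and 1 fell in MYC tumours (80.8% higher), against 36.2% of all genes higher. In MYC+Ex3 tumours 25 of the 26 rose (96.2%), against 42.3%. The cut keeps the more thinly covered members and was not applied to other genes.

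**Figure D5:**
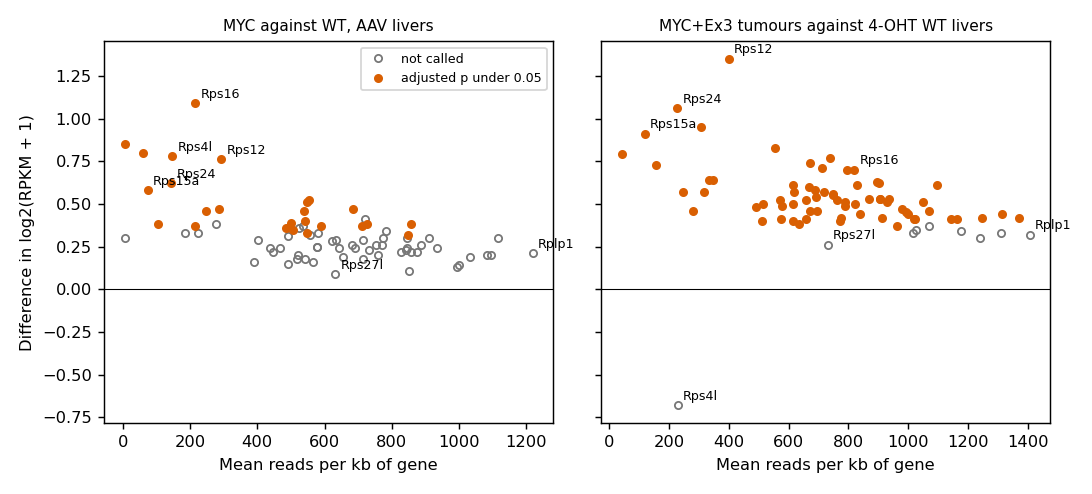
Difference in log2(RPKM + 1) (y axis) against mean reads per kb of gene over the arm (x axis) for each ribosomal protein gene tested; left, MYC against WT livers, right, MYC+Ex3 tumours against 4-OHT livers; filled points passed limma at an adjusted p under 0.05. On the left the 5 largest called rises, of Rps16, Rpl26, Rpl34, Rps4l and Rps12, are in thinly covered genes. Densely covered genes such as Rplp1 (0.21 and 0.32) have small differences.

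Libraries of nearly equal total were also set side by side, a comparison added after the data were seen. Each MYC library was paired with the wild-type library of its arm with the closest total, where the totals lay within 5%. In 6 such pairs of day 4 livers the summed RPKM of the set was 1.12 to 1.66 times higher in the liver with MYC. In 5 pairs of the tumour arm it was 1.29 to 1.5 times higher in the tumour. MYC liver 3 (4.39 M) had 10752 RPKM beside 7718 in WT liver 5 (4.38 M), and MYC tumour 3 (36.92 M) had 1961 beside 1308 in 4-OHT liver 4 (36.49 M). The pairs match the total behind RPKM and not the reads in genes. MYC tumour 3 had 9.82 M reads in genes and 4-OHT liver 4 had 8.25 M. The set took 0.679% and 0.513% of these reads. All 11 ratios were above 1; some pairs share a control library. The other 5 of the 16 libraries with MYC had no control within 5%. Beside the nearest one, MYC liver 5 (6.69 M) had 7561 RPKM to 7716 in WT liver 3 (6.07 M), a ratio of 0.98, and the remaining 4 had ratios of 1.11 to 1.65.

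The genes around the ribosomal proteins gave a scale for these changes. Of all genes tested 16.9% rose in MYC livers, 36.2% in MYC tumours and 42.3% in MYC+Ex3 tumours. Of 33 ribosome biogenesis factors, the nucleolar proteins that process ribosomal RNA, all 33 rose in MYC livers with a median of 1.29, and all 33 rose in MYC tumours (1.23) and MYC+Ex3 tumours (1.52). Nop56, a core protein of box C/D particles, rose by 2.03 ± 0.163 in MYC livers (limma adjusted p = 3.52e-07) and Dkc1, the pseudouridine synthase, by 1.74 ± 0.166 (limma adjusted p = 1.31e-06). The largest rise of a ribosomal protein gene in that comparison, 1.09, was thus below the median of the biogenesis factors. The lists were not matched for coverage, and changes tended to be smaller in densely covered genes. Nop56 and Dkc1 had mean RPKM of 26.2 and 14.5 in WT livers. The median ribosomal protein gene had a mean of 112 over the short-term livers. Ribosomal protein genes below 500 reads per kb had a median difference of 0.37 in MYC livers. The part of coverage in the gap between the lists was not tested. Of RNA polymerase I and its factors 11 of 14 rose in MYC livers (median 0.70) and 13 of 14 in MYC tumours (0.95). Of the chaperones that carry single ribosomal proteins, 5 of 8 rose in MYC livers (0.56), led by Grwd1, which escorts Rpl3 (1.74 ± 0.242, limma adjusted p = 3.35e-05).

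Of 18 other TOP genes of translation 10 rose in MYC livers (median 0.42), with Npm1 first (0.88 ± 0.145, limma adjusted p = 0.000171), and 14 of 16 in MYC tumours (0.60). Mitochondrial ribosomal proteins, which serve the separate ribosome of mitochondria, had 33 of 76 genes higher in MYC livers (0.38) and 65 of 76 in MYC tumours (0.55). The shares of all genes were 16.9% and 36.2%, with medians of 0.07 and 0.19. None of these lists had a gene lower in these comparisons. In Ex3 livers none of the 33 biogenesis factors changed (median -0.07). The biogenesis list was known from earlier results to respond to MYC, so its counts serve as a reference only.

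Across arms, 22 of the 25 genes that rose in MYC livers also rose in MYC tumours (88.0%), which is 40% of the 55 called there; 71.4% of all tested ribosomal protein genes rose in MYC tumours. Rps12, Rps15a, Rps24 and Rps16 rose in MYC livers, MYC+Ex3 livers and both kinds of tumour, and Rps27l passed in none of the 9 comparisons.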

How the data were processed

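Strand-specific total RNA libraries were sequenced per the labels' protocols. The submitters' processing notes name TopHat2 2.0.8, SAMtools, featureCounts 1.4.5-p1, DESeq2 and the mm9 build, without settings; how duplicate and multi-mapping reads were treated is not given in the sources used here. The deposited values are RPKM computed by the authors, 1 column per library. The authors' deposited table also gives log2 fold changes and adjusted p-values, used only where it is named. Reads were recovered as whole multiples within each gene (100% of values of 20485 genes were whole within 0.01) and used for description only.

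The library totals behind the RPKM were 3.75 to 7.32 M reads in the short-term arm and 23.89 to 38.84 M in the tumour arm. Reads in genes numbered 3.75 to 7.31 M and 6.65 to 9.82 M, so the arms differed less in these than in the totals. Groups were taken from titles and genotype labels. Each arm was fitted by itself with limma 3.58.1 (R 4.3.3): log2(RPKM + 1), moderated variances with a trend on the mean, two-sided tests, Benjamini-Hochberg adjusted over all genes with an RPKM of at least 1 in 3 libraries, called at 0.05; fold changes on this scale understate changes of low genes. The text names the 5 largest called rises and falls of each comparison, a panel of 17 members, and the 2 largest called changes of each related list. A gene that this rule names in 1 comparison is followed through the others. The members and lists were chosen with earlier results of these data known. Titles carry an identifier per library but do not say that each is a separate animal, so p-values measure the spread between these samples. Scripts were tested on simulated data. Alternatives are in the closing section.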

Additional observations from a re-analysis of the deposited data

Results flagged for a closer look

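Of 118 sets of values (25 named genes and the summed RPKM, in groups of 5 or 7 libraries, where a library reached 1 RPKM), 5 had a library that stood apart from the rest of its group by Dixon's 95% criterion; chance alone flags about 1 in 20. All were MYC+Ex3 livers. In 4 of them MYC+Ex3 liver 3, the library with the lowest total (3.75 M), was the highest: Rplp2 at 149 RPKM (the others 112 to 120), Rps12 at 87.4 (66.0 to 71.4), Rps19 at 74.4 (60.4 to 62.8) and Rps3 at 60 (44.0 to 46.6). MYC+Ex3 liver 2, with the highest total (7.32 M), was high for Rps16 at 67.8 (48.2 to 53.9). The part of the library total in these values was not tested.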

How the results depend on the processing

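No paired analysis was possible because the titles give each library an identifier of its own and no replicate number; what neighbouring identifiers share is not stated, and they were not used as a block. Settings were a pseudocount of 0.1, no filter, a filter at RPKM 5, rescaling, a sex covariate, only the groups compared, leaving out each library, keratin and liver subsets, leaving out members above 50% of the highest RPKM, and, added after seeing the data, the library total as a covariate. The 4 comparisons without a called member stayed at 0 under each. Called members numbered 25 in MYC against WT livers and 8 after rescaling, 68 with the total, 11 with only these groups fitted, 52 with a keratin term, 2 in keratin-free libraries and 11 to 51 with one library left out. MYC+Ex3 against WT gave 33, then 10 rescaled, 73 with the total, 5 keratin-free, 53 keratin-bearing and 21 to 35 with one library left out. With sex it gave 22, where 3 of 5 WT and 1 of 5 MYC+Ex3 livers were called female. MYC+Ex3 against Ex3 gave 15, then 7, 53, 3 keratin-free, 26 with a keratin term and 8 to 16. MYC tumours gave 56 (55 higher), then 23 rescaled, 32 with sex, 19 and 36 against the 4-OHT livers titled S14 or S15 alone, 22 without the highest members and 21 to 70 with one library left out. MYC+Ex3 tumours gave 68, then 33 rescaled, 36 against S14 livers, 25 without the highest members and 32 to 69. Leaving out the highest members tests fewer genes by construction. For the other settings the cause was not tested. Where a setting has no share of all genes given, loss of power and a change in the set cannot be told apart. Keratin-bearing libraries alone gave no value against MYC livers, of which there is 1. No called gene named here reversed, and 19 of 26 named changes kept their call under every setting run; Rpl26 and Rps4l lost theirs most often. Rescaling moved the log2 difference of the summed RPKM in MYC+Ex3 tumours from 0.51 to 0.29. Coverage is thin for Rpl39l (0 to 38 short-term reads), Rpl26 (0 to 14) and Rpl34.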

Other observations

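Among ribosomal protein genes that the name rule leaves out, 3 of 6 tested rose in MYC livers and none fell. Of all genes tested 16.9% rose and 5.36% fell there. Rpl22l1 had 33.0 to 89.3 RPKM in WT livers and 65.5 to 152 in MYC livers. Rpl7l1, a nucleolar relative of Rpl7, rose by 0.39 ± 0.114 (limma adjusted p = 0.0186). Of the 3 pseudogene rows tested, none rose in MYC or MYC+Ex3 livers, 3 rose in MYC tumours, where 36.2% of all genes rose, and 2 rose in MYC+Ex3 tumours, against 42.3%. Rps15a-ps6 rose in MYC tumours by 0.51 ± 0.131 (limma adjusted p = 0.00537); how reads shared between such rows and Rps15a were assigned is not given in the sources used here.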
